A study of Rattus norvegicus with 20 samples.

Results

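The 9 membrane adenylyl cyclases, Adcy1 to Adcy9, were followed in the hypothalamic arcuate nucleus of male rat pups. They were taken by gene symbol from 44254 spots of a rat microarray, and the family was chosen with earlier results of these data known. All 9 had a spot, 19 spots in all, and 7 of the 9 entered a table of 13292 genes, limited to genes that had 3 or more values in every group. Adcy1 and Adcy6 did not enter it, because their single spots lacked values in 7 and 4 of the 20 samples.

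Adenylyl cyclases make cyclic AMP from ATP. Receptors coupled to Gs stimulate them and receptors coupled to Gi inhibit them, so that they set how strongly neurotransmitters and peptide hormones act through protein kinase A, cyclic nucleotide gated channels and transcription factors of the CREB family. The isoforms differ in what else they sense: Adcy1, Adcy3 and Adcy8 respond to calcium and calmodulin, Adcy2, Adcy4 and Adcy7 to G protein beta and gamma subunits, Adcy5 and Adcy6 are inhibited by calcium, and Adcy9 is restrained by the calcium-dependent phosphatase calcineurin.

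The study asked how infantile spasms, and treatment with ACTH or with PMX53, an antagonist of the complement receptor C5ar1, altered genes of neurotransmission. All samples were arcuate nuclei of male Sprague-Dawley rats on postnatal day 15, in 5 groups of 4. SNS pups were born to dams given saline on gestational day 15, had no spasms and received saline. BNS pups were born to dams given betamethasone, a synthetic glucocorticoid, on gestational day 15 as 2 injections of 0.4 mg/kg each, stayed free of spasms and were given saline. Pups of BYS, BYA and BYP shared the betamethasone exposure, had spasms triggered with N-methyl-D-aspartate (NMDA) on postnatal days 12, 13 and 15, and were given saline (BYS), ACTH (BYA) or PMX53 (BYP). The model therefore joins a prenatal steroid and an excitotoxin, and the spasm groups differed from BNS in the NMDA itself as well as in the spasms. The sources used here do not say whether littermates were spread over the groups, and the p-values measure only the spread between these samples.

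Samples were labelled with Cy3 or Cy5 and hybridised as pairs, 1 of each dye to an array. The array partners of SNS replicates 1 and 2 were not analysed here, so 2 of the 11 arrays gave a single sample. BNS, BYS, BYA and BYP each lay on 1 slide that held no other group used here, so slide and group cannot be told apart for them. Of 7 arcuate neuron markers, Agrp, Npy, Pomc, Cartpt and Th lay at the 87.0 to 99.4 percentile of gene brightness, Ghrh at 68.8 and Kiss1 below the median, at 34.8. SNS replicate 2 was labelled Cy5 but left 95 spots without a value, against 5 to 1576 in the 10 Cy3 samples and 4286 to 10147 in the other 9 Cy5 samples, so its values went with Cy3 and results are also given with it as Cy3 and without it. Levels below are log2 intensities with the median of the sample at 0. A gene was called where the Benjamini-Hochberg adjusted p of limma was under 0.05, and adjusted p in the text always means that of limma.

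CREB, the transcription factor that protein kinase A activates, binds the cyclic AMP response element in promoters. Of the 9 genes, 6 had a promoter in a RefSeq table of the GRCr8 build (Adcy1, Adcy2, Adcy4, Adcy5, Adcy7 and Adcy9). The 250 bases before the start are shown for Adcy2, which was called below, and for Adcy9, whose call turned on the processing. Capitals mark the half-site of the cyclic AMP response element, TGACG, and the GC box, GGGCGG, each searched on both strands.
Adcy2, chr1:36203804-36204053, plus strand: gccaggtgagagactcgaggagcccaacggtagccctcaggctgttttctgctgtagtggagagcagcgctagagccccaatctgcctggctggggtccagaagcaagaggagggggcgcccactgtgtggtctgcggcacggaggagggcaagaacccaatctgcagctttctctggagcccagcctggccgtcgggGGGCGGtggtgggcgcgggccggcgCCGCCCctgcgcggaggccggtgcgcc
Adcy9, chr10:11645595-11645844, plus strand: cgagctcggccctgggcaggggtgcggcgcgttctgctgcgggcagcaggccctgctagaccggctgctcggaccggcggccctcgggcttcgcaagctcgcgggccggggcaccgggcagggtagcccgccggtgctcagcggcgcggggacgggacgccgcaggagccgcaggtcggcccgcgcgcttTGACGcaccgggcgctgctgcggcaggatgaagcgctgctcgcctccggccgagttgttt
The Adcy9 window held 1 half-site and no GC box, and the Adcy2 window 2 GC boxes and no half-site. The half-site occurred in 19.0% and the GC box in 32.4% of the 27457 rat promoter windows of the same length. None of the 6 member windows held the full element TGACGTCA, which was present in 1.7% of all windows. Adcy9 was the only one of the 6 with a half-site. The Adcy2 and Adcy9 windows were 69.6% and 76.8% G and C, against a median of 52.0% over all windows. A match describes letters in a window and is not a measured site.

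In saline-treated rats with spasms (BYS), Adcy3 was higher (0.67 ± 0.17, log2) and Adcy2 lower (-0.63 ± 0.20) than in rats without spasms (BNS), and the 5 other cyclases tested did not pass. Both differences had the sign of those of the spots of other genes around them on the array, and neither was called once that local trend was taken out. With the trend removed, Adcy9 was called, higher in BYS by 0.88 ± 0.15 (SE, n = 4 per group). Without that step Adcy9 differed by 0.32 ± 0.17 and did not pass (adjusted p = 0.19), while the spots around it had a median of -0.50. The call with the trend removed was lost with the slide as a random block. In bulk tissue, fewer cells of a type and less RNA per cell cannot be told apart. The values follow by what each enzyme senses.

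Adcy3 is calmodulin-sensitive and is the cyclase of neuronal primary cilia. In BYS replicates 1 to 4 its level was -0.36, -0.50, -0.34 and -0.71, and in BNS replicates -1.06, -1.35, -0.95 and -1.21. SNS replicates lay at -0.97, -1.03, -0.82 and -1.41. All 4 BYS samples were above each of the other 16 samples, the highest of which, BYP replicate 3, was at -0.78. The share of all genes with BYS apart from all other samples was not computed. BYA replicates were at -1.12, -1.36, -0.89 and -1.30, and BYP replicates at -1.30, -1.28, -0.78 and -1.56. Levels of SNS, BNS, BYA and BYP overlapped one another. Adcy3 was higher in BYS than in BNS by 0.67 ± 0.17 on the log2 scale (SE, n = 4 per group, a fold of 1.59, adjusted p = 0.016). It was also higher in BYS than in SNS (0.57 ± 0.16, adjusted p = 0.039), lower in BYA than in BYS (-0.69 ± 0.17, adjusted p = 0.018) and lower in BYP than in BYS (-0.75 ± 0.17, adjusted p = 0.012). All 4 contrasts use the same BYS samples. All 4 were also called with SNS replicate 2 as Cy3 (adjusted p = 0.0024 to 0.0043) and without it (adjusted p = 0.0018 to 0.010).

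Adcy2 is stimulated by G protein beta and gamma subunits in the presence of active Gs. Its BYS replicates were at 0.19, 0.23, 0.19 and 0.31, and its BNS replicates at 0.91, 0.90, 0.85 and 0.78. SNS replicates were at 0.12, 0.92, 0.98 and 1.11. The BYS samples formed a tight set below 15 of the other 16 samples, the exception being SNS replicate 1, which lay below all BYS samples. The share of all genes with such a pattern was not computed either. BYA replicates were at 1.04, 0.68, 0.82 and 0.91, and BYP replicates at 1.00, 1.21, 0.70 and 1.06. Adcy2 was lower in BYS than in BNS by -0.63 ± 0.20 (a fold of 0.646, adjusted p = 0.045) and higher in BYP than in BYS by 0.76 ± 0.20 (adjusted p = 0.027). It missed the threshold in BYA against BYS (0.63 ± 0.20, adjusted p = 0.063), although these groups did not overlap, and in BYS against SNS (-0.51 ± 0.20, adjusted p = 0.12). Without SNS replicate 1 the last difference was -0.75 with an adjusted p of 0.016. The BYS against BNS call was thin: leaving out single samples gave an adjusted p of 0.052 to 0.079 in 15 of 20 cases. With SNS replicate 2 as Cy3, adjusted p was 0.020 in BYS against BNS, 0.028 in BYA against BYS and 0.044 in BYS against SNS. Without that sample it was 0.016 in BYS against BNS and 0.022 in BYA against BYS, and Adcy2 did not pass in BYS against SNS.

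**Figure D1:**
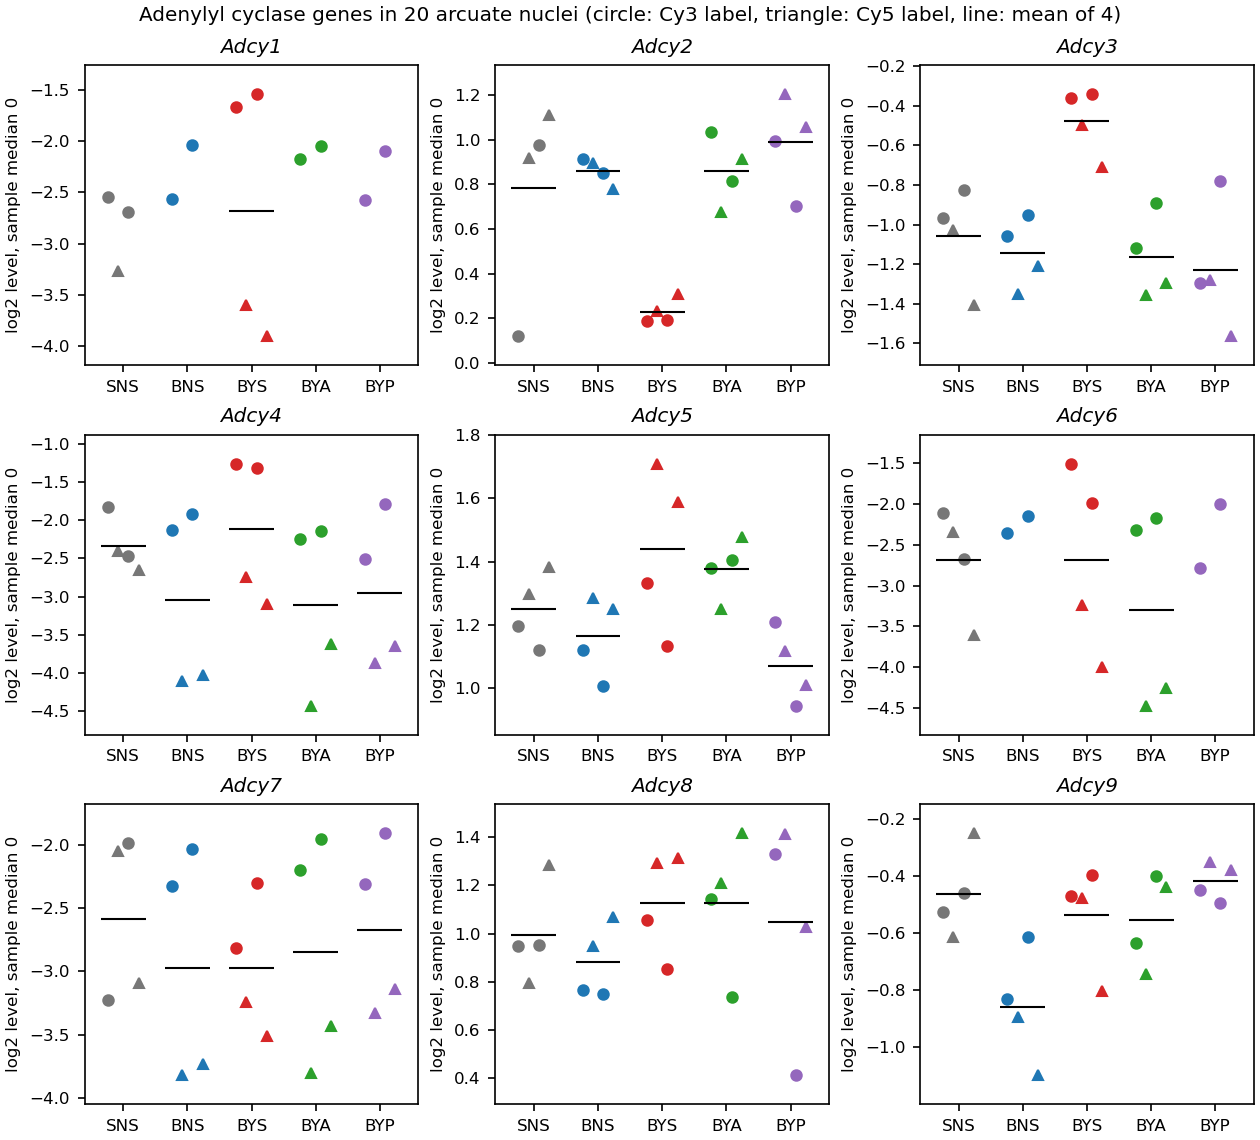
Level of each adenylyl cyclase gene (log2, sample median at 0, y axis) in the 5 groups (x axis). Each point is 1 sample, circles Cy3 and triangles Cy5, and the line is the mean of 4 values. Adcy3 was at or above -0.71 in BYS samples only, Adcy2 was low in BYS and SNS replicate 1, and Adcy1, Adcy4, Adcy6 and Adcy7 split by dye.

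Adcy8, a calmodulin-stimulated cyclase, was at 1.05, 1.29, 0.85 and 1.31 in BYS replicates, as the mean of its 10 spots. BNS replicates were at 0.76, 0.95, 0.75 and 1.07. These ranges overlapped, as did those of SNS (0.79 to 1.29), BYA (0.74 to 1.42) and BYP (0.41 to 1.41). The BYS minus BNS difference of 0.25 ± 0.20 did not pass (adjusted p = 0.40, 95% interval -0.18 to 0.68). BYP replicate 3 gave the lowest value of all 20 samples, 0.41.

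Adcy5, the main striatal cyclase, which calcium inhibits, was at 1.33, 1.71, 1.13 and 1.59 in BYS replicates. BNS replicates were at 1.12, 1.28, 1.01 and 1.25. The 2 Cy5 samples of BYS were the highest of all 20 and its replicate 3 lay inside the BNS range. The difference was 0.27 ± 0.15 (adjusted p = 0.21, 95% interval -0.05 to 0.60). SNS ranged from 1.12 to 1.38, and BYA (1.25 to 1.48) lay above BYP (0.94 to 1.21) without overlap, a difference that did not pass in BYP against BYA (-0.31 ± 0.15, adjusted p = 0.93).

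Adcy9, which calcineurin restrains and forskolin hardly activates, was lowest in BNS, at -0.83, -0.89, -0.61 and -1.10. BYS replicates were at -0.47, -0.47, -0.40 and -0.80, with replicate 4 inside the BNS range. BYP replicates were at -0.45, -0.35, -0.49 and -0.38, all above BNS. SNS replicates were at -0.53, -0.61, -0.46 and -0.25, and BYA replicates at -0.63, -0.74, -0.40 and -0.44. Against BNS, neither BYS (0.32 ± 0.17, adjusted p = 0.19) nor BYP (0.44 ± 0.17, adjusted p = 0.73) passed.

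The spots of Adcy1, Adcy4, Adcy6 and Adcy7 were dim and their values split by dye. The low end of the intensities was also higher in BYS than in BNS. The 10th percentile of spots was -1.32 and -1.44 in Cy3 samples of BYS and -1.98 and -1.79 in those of BNS. In Cy5 samples it was -2.67 and -2.83 in BYS and -3.28 and -3.22 in BNS. Adcy4, like Adcy2 stimulated by G protein beta and gamma subunits, ranged from -2.51 to -1.26 in the 10 Cy3 samples and from -4.43 to -2.66 in the Cy5 samples other than SNS replicate 2, which was at -2.40. Its BYS replicates were at -1.26, -2.75, -1.32 and -3.10 and its BNS replicates at -2.13, -4.10, -1.92 and -4.03, so that BYS was above BNS within each dye. The difference of 0.94 ± 0.39 did not pass (adjusted p = 0.10), but was called with SNS replicate 2 as Cy3 (adjusted p = 0.038) and without it (adjusted p = 0.027), as well as without SNS replicate 3 (adjusted p = 0.042). It was 0.49 with the local trend removed (adjusted p = 0.41) and 0.45 with quantile normalization (adjusted p = 0.21). Spots of similar level around Adcy4 on the array had a median BYS minus BNS difference of 0.74. Adcy7, a cyclase of immune cells, was read on its complete spot and differed by 0.01 ± 0.41 (adjusted p = 0.99, 95% interval -0.85 to 0.87). Its other spot, which lacked a value in BYA replicate 4, differed by 0.46 ± 0.28 (adjusted p = 0.25 over all spots), and by 0.76 ± 0.27 with the local trend removed (adjusted p = 0.091), so the 2 spots of the gene disagreed in size. Around that spot, spots of similar level had a median difference of 0.28, and around the complete spot 0.27.

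Adcy1, a calmodulin-stimulated cyclase of synaptic plasticity, had a value in all 10 Cy3 samples (-2.70 to -1.54) and in 3 of 10 Cy5 samples. The Cy5 values were those of SNS replicate 2 and of BYS replicates 2 and 4, from -3.90 to -3.27. Adcy6, which like Adcy5 is inhibited by calcium, had a value in all 10 Cy3 samples (-2.78 to -1.51) and in 6 of 10 Cy5 samples (-4.47 to -2.34). For both genes the highest value was that of a BYS sample with Cy3, and no test was made. Spots of similar level around them had median BYS minus BNS differences of 0.65 (Adcy1) and 0.38 (Adcy6). Adcy10, the soluble cyclase that bicarbonate activates and no member of the membrane family, was as dim (mean -2.97) and did not pass in BYS against BNS (0.65 ± 0.33, adjusted p = 0.17).

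Over the family, 2 of the 7 genes tested were called in BYS against BNS, 1 in each direction, where 15.5% of all genes were called (8.88% upward and 6.62% downward). With 7 genes tested, 2 calls are near that background. The median difference of the 7 was 0.27, and that of all genes 0.18. The same 2 genes, Adcy2 and Adcy3, were the members whose BYS and BNS samples did not overlap, which held for 18.7% of all genes. Samples were also separate for Adcy3 in BYS against SNS (15.2% of all genes), for Adcy2 and Adcy3 in BYA against BYS (10.7%) and BYP against BYS (12.6%), for Adcy9 in BYP against BNS (6.04%) and for Adcy5 in BYP against BYA (3.39%). In BYS against SNS 1 of 7 was called (background 7.58%), in BYA against BYS 1 of 7 (8.67%) and in BYP against BYS 2 of 7 (9.68%). In the other 6 contrasts limma called no member, and the backgrounds were 0.241% for BYA against BNS, 0.0301% for BYP against BNS, 0.00752% for BNS against SNS, 0.0226% for BYA against SNS, 0.0150% for BYP against SNS and 0.0301% for BYP against BYA. At an unadjusted p under 0.05 those 6 contrasts held 0, 1, 1, 1, 0 and 0 members in that order, Adcy9 in BYP against BNS and in BNS against SNS and Adcy4 in BYA against SNS. Over all genes 9.76%, 5.46%, 14.9%, 15.8%, 12.5% and 4.62% passed that limit. The smallest adjusted p among them was 0.30, and all their differences lay between -0.81 and 0.44.

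**Figure D2:**
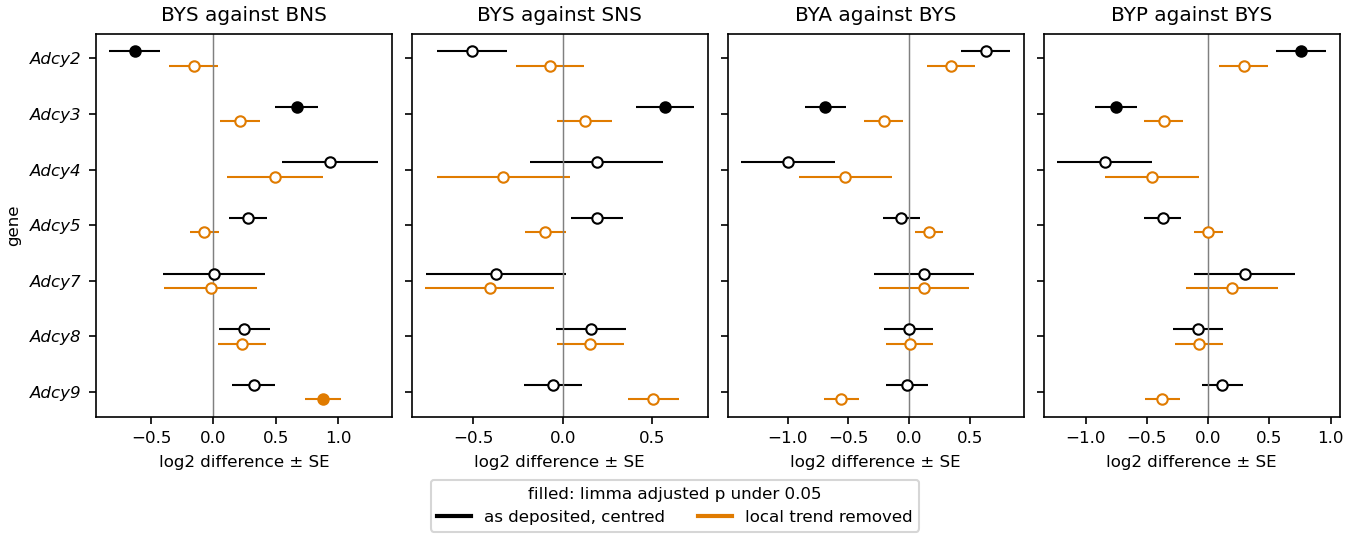
Fitted log2 difference (x axis, ± SE) of the 7 genes tested (y axis) in the 4 contrasts that hold BYS and a called member, with values as deposited and centred (black) and after removal of the local array trend (orange). Filled points had a limma adjusted p under 0.05: Adcy3 in all 4 contrasts and Adcy2 in 2 of them in black, and Adcy9 in BYS against BNS in orange.

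The position of the spots on the array moved with these differences. The layout, 85 columns by 532 rows, was inferred from the spot numbers. Around the Adcy3 spot (row 459, column 77), the 577 spots of other genes within 20 rows and 10 columns had a median BYS minus BNS difference of 0.48, with quartiles of 0.33 and 0.68, against 0.67 for Adcy3. Around the Adcy2 spot (row 97, column 27), the median of 617 spots was -0.43, with quartiles of -0.80 and -0.0029, against -0.63. The differences of Adcy3 and Adcy2 thus fell between the quartiles of the spots around them.

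Adcy9 (row 201, column 48) stood against its surroundings: it was 0.32 higher in BYS than in BNS, while the 623 spots around it had a median of -0.50 and quartiles of -0.90 and -0.03. Around Adcy5 (row 349, column 67) the median was 0.38, against 0.27 for the gene itself. In BYP minus BNS the surroundings were nearly level, at 0.07 for Adcy3, 0.0026 for Adcy2, -0.07 for Adcy9 and -0.01 for Adcy5. There Adcy9 differed by 0.44.

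**Figure D3:**
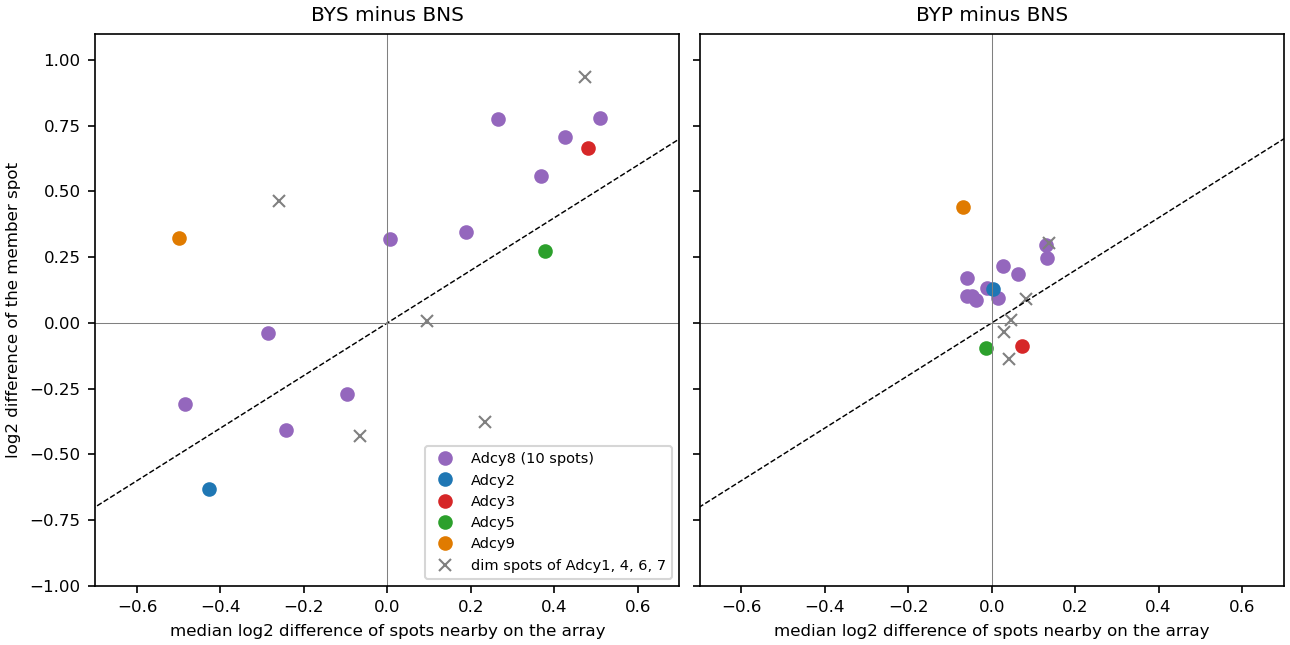
Log2 difference of each member spot (y axis) against the median difference of the spots of other genes within 20 rows and 10 columns of it (x axis), for BYS minus BNS and BYP minus BNS. The dashed line marks equality. Coloured points are the brighter genes and grey crosses the dim spots of Adcy1, Adcy4, Adcy6 and Adcy7. For BYS minus BNS, 13 of the 14 spots of Adcy2, Adcy3, Adcy5, Adcy8 and Adcy9 had the sign of their surroundings, and Adcy9 did not.

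The 10 spots of Adcy8 read 1 gene at 10 places of the array. In BYS minus BNS they ranged from -0.41 (row 316) to 0.78 (row 374), 6 above 0 and 4 below. The row 374 spot was at 1.58, 1.98, 1.25 and 1.92 in BYS replicates and at 0.79, 0.96, 0.70 and 1.16 in BNS replicates. The row 316 spot was at 0.70, 0.80, 0.27 and 0.51 in BYS and at 0.91, 1.08, 0.82 and 1.11 in BNS. Both pairs of groups were separate, in opposite directions, for the same gene. These 2 spots were picked as the ends of the 10 differences, and the share of all spots without overlap was not computed.

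In BYS minus BNS, all 10 Adcy8 differences had the sign of the spots around them, whose medians ran from -0.48 to 0.51. Pearson r was 0.92 over the 10 spots, which share the gene and the samples. In the other contrasts r was 0.84 to 0.96, except in BNS minus SNS (0.27). In BYP minus BNS, where r was 0.84, the surrounding medians ran from -0.06 to 0.13 and 5 of 10 signs were shared. Within single samples the 10 spots spanned 1.29 to 1.77 in BYS, 0.50 to 0.70 in BNS, 0.65 to 1.06 in SNS and 0.37 to 0.50 in BYP. In BYA they spanned 0.67 and 0.72 in replicates 2 and 1, and 1.67 and 1.97 in replicates 3 and 4, which shared an array. Tested as single spots, 3 of 17 member spots were called in BYS against BNS, Adcy3 and 2 of Adcy8, all upward, where 15.0% of 34191 spots were called.

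**Figure D4:**
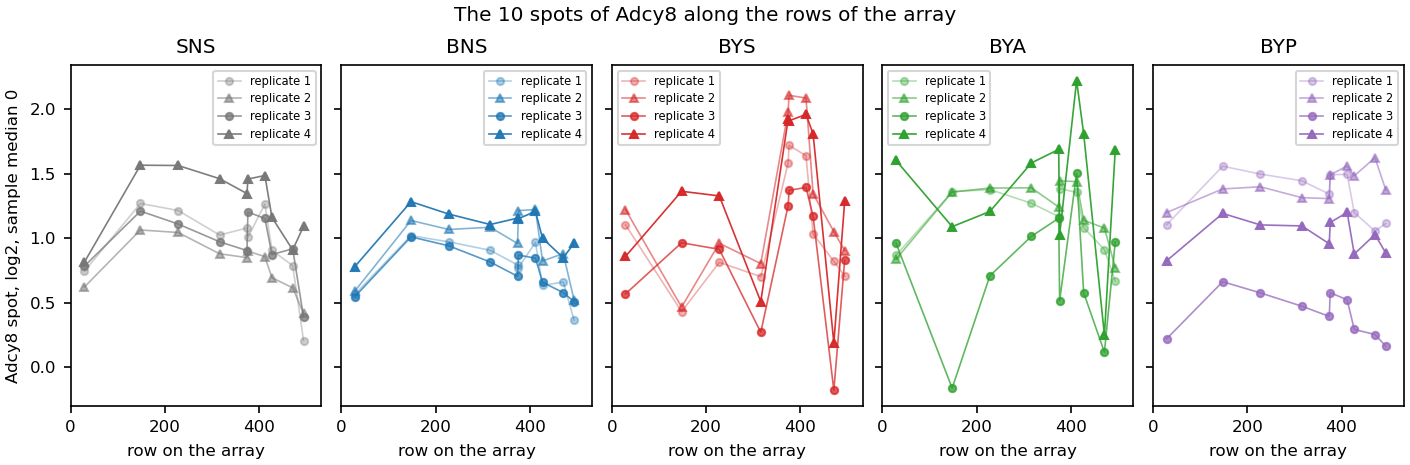
Level of the 10 Adcy8 spots (log2, sample median at 0, y axis) by their row on the array (x axis, 532 rows), 1 line per sample, circles Cy3 and triangles Cy5. Within a sample the 10 spots spanned 0.65 to 1.06 in SNS, 0.50 to 0.70 in BNS and 0.37 to 0.50 in BYP. The span was 1.29 to 1.77 in BYS and 0.67 to 1.97 in BYA.

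A local trend was therefore estimated in each sample, as the median deviation of nearby spots from their mean over samples of the same dye (SNS replicate 2 with Cy3), and subtracted. Adcy3 then differed between BYS and BNS by 0.21 ± 0.16 (adjusted p = 0.40) and Adcy2 by -0.16 ± 0.20 (adjusted p = 0.62). Adcy5 changed sign, to -0.07 ± 0.12 (adjusted p = 0.72), and Adcy8 stayed at 0.23 ± 0.19 (adjusted p = 0.45), with 8 of its 10 spots above 0. Both calls in BYP against BYS were lost as well, Adcy3 at -0.36 (adjusted p = 0.20) and Adcy2 at 0.29 (adjusted p = 0.39), and so were those of Adcy3 in BYS against SNS (0.12, adjusted p = 0.83) and BYA against BYS (-0.21, adjusted p = 0.45). Of all genes, 2.48%, 1.55% and 2.09% were called in these 3 contrasts.

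Adcy9 was the single member called after this step, higher in BYS than in BNS by 0.88 ± 0.15 (adjusted p = 0.0028), where 7.50% of all genes were called. With the trend removed its BYS replicates were at -0.04, 0.03, -0.04 and -0.34 and its BNS replicates at -0.90, -1.01, -0.71 and -1.28, without overlap. Before this step the 2 groups overlapped, and the share of all genes without overlap after it was not computed. SNS (-0.77 to -0.48), BYA (-0.85 to -0.46) and BYP (-0.56 to -0.36) lay below BYS, and SNS and BYA overlapped BNS. The call held with a smaller window (0.81, adjusted p = 0.0026), and was lost with the slide as a random block (adjusted p = 0.22). The trend counted SNS replicate 2 as Cy3, but the dye term of the fit kept its Cy5 label. With Cy3 in both, the call held (adjusted p = 7.86e-04). Adcy9 was then also called higher in BYS than in SNS (0.53, adjusted p = 0.015) and lower in BYA than in BYS (-0.56, adjusted p = 0.014). Whether the part of the array or the tissue sets the difference of these 3 genes was not tested.

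With the slide as a random block and no trend removed, no member was called by limma in any contrast. Adcy3 had an adjusted p of 0.092 and Adcy2 of 0.21 in BYS against BNS, where 2.26% of all genes were called. Only SNS lay on more than 1 slide, so this block cannot tell slide from group for BNS, BYS, BYA and BYP.

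The profiles most like Adcy3 over the 20 samples, among 12492 other genes, were those of Rufy1 (Pearson r = 0.96), Plekhm2 (r = 0.95) and Umps (r = 0.94). Their spots lay 3, 51 and 62 rows and 2, 3 and 2 columns from that of Adcy3. The profiles most like Adcy2 were those of Serf1, Amacr and Alg11 (r = 0.88, 0.87 and 0.87). The Amacr and Alg11 spots lay 7 and 8 rows and 1 column from Adcy2, and both Serf1 spots lay 204 and 216 rows away. Among the members themselves, Adcy2 and Adcy3 ran opposite (r = -0.77 over 20 samples), and Adcy4 and Adcy7, which share the dye split, ran together (r = 0.76).

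Of 119 other genes that feed or read cyclic AMP, 105 were measured, and 18 of them (17.1%) were called in BYS against BNS, 10 upward and 8 downward. This share was near the 15.5% of all genes, and the median difference was 0.26, against 0.18 over all genes. Among 7 G protein alpha subunits, Gnal, the Golf subunit that drives Adcy3 in olfactory cilia and Adcy5 in striatum, was lower by -1.61 ± 0.29 (adjusted p = 0.0021), and no other passed. Of all genes, 8.88% were called upward and 6.62% downward. Of 20 receptors coupled to Gs, 4 were higher: the dopamine receptor Drd5 (0.66), the serotonin receptor Htr7 (0.59), the VIP receptor Vipr1 (0.75) and the corticotropin-releasing hormone receptor Crhr1 (0.73). Of 23 receptors coupled to Gi, the somatostatin receptor Sstr2 (0.77) and the delta opioid receptor Oprd1 (0.76) were higher and Sstr1 (-0.70) lower.

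Downstream, 4 of 16 protein kinase A subunits and anchors were lower and none higher, where 6.62% of all genes were called downward, with a median of -0.30. They were the regulatory subunits Prkar1a (-0.75 ± 0.14, adjusted p = 0.0024) and Prkar2b (-0.38), the kinase inhibitor Pkig (-0.61) and the anchor Akap11 (-0.50). Of these 4, only Prkar1a was also called with the local trend removed. None of 12 phosphodiesterases, which break cyclic AMP down, was called by limma, and 3 had an unadjusted p under 0.05, as 34.0% of all genes did. Of 6 other effectors, the channels Hcn3 (0.56) and Hcn4 (0.60) were higher, as was Creb3l1 (0.60), a membrane-bound transcription factor, among 8 CREB family genes and coactivators. Upward calls made up 8.88% of all genes. Of 12 genes listed as calcium and calmodulin regulators, Calm3 (-0.69), which encodes calmodulin, and Ppp3cb (-1.12), a catalytic subunit of calcineurin, were lower. Snap91 (0.82) in that list encodes a clathrin assembly protein and was higher.

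After the local trend was removed, 8 of the 105 genes (7.62%, against 7.50% of all genes) were called, and 5 of these were among the 18: Gnal, Oprd1, Sstr1, Sstr2 and Prkar1a. With the slide as a random block, 2 were called (1.90%, against 2.26% of all genes), Gnal (adjusted p = 0.038) and Prkar1a (adjusted p = 0.044), and both were among the 5. In the other contrasts the smallest p of these lists belonged to Gnal in BYS against SNS (-1.92 ± 0.28, adjusted p = 3.33e-04), Oprd1 in BYA against BNS (1.36 ± 0.20, adjusted p = 0.0066) and Prkar1a in BYP against BYS (0.85 ± 0.14, adjusted p = 0.0011). Under the slide block the adjusted p was 0.11 for Oprd1, which was no longer called, 0.0099 for Gnal and 0.031 for Prkar1a. This block cannot tell slide from group, so passing it does not set these calls apart from a slide difference.

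Markers of another cell type moved in the same contrast. Of 8 oligodendrocyte markers measured, 3 were higher and none lower in BYS than in BNS, Mog by 2.45 and Mobp by 2.50 among them, with a median of 1.71. Of all genes, 8.88% were called upward and 6.62% downward. The mean level of the 8 ranged from -0.01 to 1.02 in BYS samples, from -1.53 to -0.11 in BNS, from -0.69 to 0.58 in SNS, from -0.31 to 0.64 in BYA and from -1.61 to 0.01 in BYP. The median remained at 1.85 after the local trend was removed. BYS and BNS did not overlap in this list, none of the 8 was called by limma with the slide as a random block, and its part in the differences of the cyclases was not tested. The other 11 marker lists, for neurons, arcuate neurons, astrocytes, oligodendrocyte precursors, microglia, endothelium, ependyma, pituitary, neighbouring brain regions, choroid plexus and blood, each held at most 1 call upward and 1 downward, with medians from -0.23 to 0.43. Among oligodendrocyte precursor markers, Olig2 was lower (-1.08) and Gpr17 higher (0.86). Emx1, of neighbouring brain regions, was higher (0.93). With the slide as a random block, which cannot tell slide from group, these stayed called (adjusted p = 0.017, 0.045 and 0.011). With the local trend removed, Gpr17 and Emx1 were called and Olig2 was not (adjusted p = 0.091).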

How the data were processed

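The deposited values were spot intensities from 2-colour rat microarrays, read by the authors with Agilent Feature Extraction 10.7.3.1 per the labels, on a linear scale with sample medians of 0.663 to 0.728. Their background correction and normalization: not given in the sources used here. A sample had 34107 to 44249 of 44254 spots with a value. The number of arrays (11, on 6 slides) limits the precision.

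Intensities were taken as log2, centred on the median of each sample, and spots of a gene with values in all samples were averaged. For 799 genes without such a spot the most complete spot was used. Names came from accessions for 27361 spots, symbols for 3488 and synonyms for 785, and 12608 spots had none. All 20 samples were fitted by limma (version 3.58.1, under R 4.3.3), in two-sided tests, with group and dye as terms and the array as a random block (correlation 0.436), over 13292 genes with Benjamini-Hochberg adjustment. Each spot's place was inferred from its number, and the local trend was the median deviation within 20 rows and 10 columns each side, SNS replicate 2 counted with Cy3. Software was data.table (1.17.8), Python 3.11.15, pandas 2.3.3, numpy 2.4.6 and matplotlib 3.10.9, and the fit was tested on simulated data.

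The members, the cyclic AMP lists and the marker lists were chosen with earlier results of these data known. Named genes were all members, at most the 4 genes of smallest p called per cyclic AMP list in BYS against BNS, the 3 of smallest p in the other contrasts, and the 3 genes most correlated with each member called without trend removal. Adcy9, called only with it, was left out of the last. Alternatives covered centring, blocks, dye, spot choice, filters, the methods' t-test and leaving out each sample.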

Additional observations from a re-analysis of the deposited data

How the results depend on the processing

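In BYS against BNS, 2 members were called, Adcy2 and Adcy3. Only Adcy3 was called with the replicate block, centring on the 75th percentile, no centring, quantile normalization, the brightest spot of each gene or Cy3 samples alone. Only Adcy9 was called with the local trend removed (also with the smaller window or with SNS replicate 2 as Cy3), and only Adcy4 in Cy5 samples alone. Adcy4 was called beside Adcy2 and Adcy3 with no block, SNS replicate 2 as Cy3 or the compared groups alone. Adcy9 was called beside Adcy2 and Adcy3 with no dye term. With the slide as a random block 0 were called, also after trend removal. Leaving out 1 sample gave 1 to 3. In BYS against SNS (1 called), 0 were called with the slide block, centring on the 75th percentile, no centring, the trend removed (either window, or with the slide block), the compared groups alone, 1 dye alone, or the methods' t-test after adjustment, and 2 with no block, no dye term or SNS replicate 2 as Cy3. Leaving out 1 sample gave 0 to 1. In BYA against BYS (1 called), 0 were called with the slide block, the trend removed (either window, or with the slide block), 1 dye alone or the adjusted t-test, 2 with no dye term, the lowest 25% of genes left out or the unadjusted t-test, and 3 with no block or SNS replicate 2 as Cy3. Leaving out 1 sample gave 1 to 3. In BYP against BYS (2 called), 0 were called with the slide block, the trend removed (either window, with the slide block or with SNS replicate 2 as Cy3), Cy5 samples alone or the adjusted t-test, 1 with no centring and 4 with no block. Leaving out 1 sample gave 1 to 4. The unadjusted t-test called 1 member in BYA against BNS, BYP against BNS, BNS against SNS and BYP against BYA, no dye term 1 in BYP against BNS, and Cy5 samples alone 1 in BNS against SNS, all from 0. The unadjusted t-test passed 4.14% to 8.87% of all genes in these 4 contrasts. Leaving out 1 sample kept these 4 contrasts, BYA against SNS and BYP against SNS at 0 to 0. Member spots called in BYS against BNS fell from 3 to 1 with the trend removed. Adcy5 in BYS against BNS turned to -0.072 with the trend removed (also with the slide block or SNS replicate 2 as Cy3) and to -0.10 with the smaller window. Adcy7 there turned to -0.31 with quantile normalization, -0.38 in Cy3 samples alone and -0.023 with the trend removed (also with the slide block or SNS replicate 2 as Cy3), and ranged from -0.14 to 0.17 when 1 sample was left out (-0.10, -0.11, -0.14 and -0.026 without BNS replicates 2 and 4 and BYS replicates 2 and 3). The cause of these changes was not tested. The combinations with trend removal and the smaller window were chosen after seeing the data.

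Same-numbered samples of different groups correlated after removal of group and dye with r from -0.42 to 0.19, over 0.1 in 6 of 40 pairs, so the numbers were not taken as pairs. With the replicate block, Adcy3 remained called in BYS against BNS (adjusted p = 0.0096) and Adcy2 did not (adjusted p = 0.057), and 1914 genes were called in place of 2060. Over all genes, BYS against BNS gave 990 to 4484 calls when 1 sample was left out, the highest without SNS replicate 2.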
